A study of Mus musculus with 9 samples.

Results

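The cadherin and protocadherin genes of 3T3 fibroblasts are described here, as 57 genes of the 19938 that the arrays measured with at least 1 probe set annotated to a single gene. A gene was a member when its annotated symbol was Cdh followed by a number or began with Pcdh, and where several probe sets carried the same symbol the brightest by mean over the 9 arrays was used. The 57 members came from 61 probe sets. They comprised 5 classical type I cadherins, 13 type II cadherins, 5 other genes of the Cdh series, 12 non-clustered protocadherins and 22 clustered protocadherins, all 22 from the β cluster. The rule used no measured difference between groups. A further 4 probe sets listed a member symbol together with others (1 with 14 symbols and 3 with 3 symbols). They were left out of the counts, and no gene's call was taken from them.

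3T3 cells are an immortalised line of mouse embryonic fibroblasts. There were 3 groups of 3 arrays, each array from an independent sample. Wild-type cells, which carried an irrelevant short hairpin RNA, were left unstimulated or were given 5 ng/ml TNF-α for 1 h, and cells expressing a retroviral hairpin against Trap-80, the Mediator subunit encoded by Med17, were given the same TNF-α stimulus. The knock-down cells were a clonal line, so a property of that clone and an effect of the hairpin cannot be told apart in these arrays. The knock-down line at rest was not analysed here, and what differs in it after TNF-α cannot be divided into what was present before the stimulus and what came with it. Signals are log2 values from robust multi-array averaging (RMA), a background correction and normalisation that gives 1 value per probe set and array.

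Cadherins are transmembrane proteins whose extracellular repeats bind calcium and hold neighbouring cells together, mostly through contacts between like cadherins. The cytoplasmic tails of the classical cadherins bind p120-catenin and β-catenin, and the latter joins them through α-catenin to actin. Protocadherins lack that catenin-binding tail, and the clustered ones are encoded by tandem arrays of large variable exons, each with a promoter of its own, and are best known for giving neurons individual surface identities. Fibroblasts typically carry N-cadherin and cadherin-11 and little E-cadherin.

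The arrays were alike in scale, with medians between 4.47 and 4.59, and no pair of arrays held identical values. Correlations over all 35557 deposited probe sets were 0.985 to 0.992 within groups and 0.981 to 0.991 between them. Med17 read 7.98, 7.93 and 7.77 in the stimulated wild-type arrays and 6.35, 6.22 and 6.17 in the knock-down arrays, a difference of -1.64 ± 0.09 (SE, limma adjusted p = 4.8e-05) that left 32.0% of the wild-type signal. An exact permutation test over the 6 arrays gave a two-sided p of 0.1, the smallest that 3 against 3 allows. By quantitative PCR, a different measure from the array signal, the paper reported a deeper reduction of Trap-80 mRNA, and it detected no Trap-80 protein on western blots. Of 10 fibroblast markers, 9 lay above the median signal of the tested probe sets, the exception being Lum at 2.19. The same was true of 1 of 8 epithelial markers (Krt8), 0 of 6 endothelial, 0 of 5 neuronal and glial, 0 of 5 muscle and 2 of 5 leukocyte markers (Cd68 and Cd14).

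Of the 57 members, 11 had a mean signal above the median of the 23410 tested probe sets, which was 5.02, and 46 lay below it. By subfamily these were 2 of 5 type I cadherins (Cdh2 and Cdh3), 2 of 13 type II cadherins (Cdh11 and Cdh24), 1 of 5 other cadherins (Cdh13), 4 of 12 non-clustered protocadherins (Pcdh7, Pcdh9, Pcdh18 and Pcdh19) and 2 of 22 clustered ones (Pcdhb16 and Pcdhb22). Their means ran from 5.68 for Pcdhb22, the member just above the median, to 10.70 for Cdh11. The member just below was Pcdhb21 at 4.88. Against the lower median of all 35557 deposited probe sets, 4.51, 17 members lay above. Signals of different probe sets depend on their probes, so these positions do not rank the genes by abundance. Low signals were also coarse, in that 24 of the 46 members below the median had the same deposited value in 3 or more of the 9 arrays (52.2%, beside 56.7% of all tested probe sets at or below it). That held for 1 of the 11 above the median, beside 16.6% of all tested probe sets above it. It held for 0 of the 9 members that differed in the knock-down cells.

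No cadherin or protocadherin passed the test for a response to 1 h of TNF-α in wild-type cells. Over all 23410 tested probe sets, 27 passed (0.115%), among them Tnfaip3, a feedback inhibitor of NF-κB, which rose by 4.50 ± 0.17 (SE, limma adjusted p = 1.1e-05). The 57 member differences ranged from -0.35 to 0.49 on the log2 scale, with a median of 0.01 beside -0.02 over all tested probe sets, and the smallest limma adjusted p among them was 0.63. At an unadjusted p under 0.05 there were 5 members, all with a higher mean after TNF-α (Pcdh18, Cdh4, Pcdhb4, Pcdhb6 and Pcdhb12), where 7.1% of all tested probe sets reached that level. In 3 members the wild-type groups did not overlap, beside 10.2% of all tested probe sets. The study's own filter for reproducible differences, as read here, was passed by 3 members (Cdh4, Pcdhb6 and Pcdhb12), beside 7.46%. The count of members did not change with replicate number as a block, a fit in which 0.235% of probe sets passed.

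Pcdh18, a non-clustered protocadherin, is on a list of TNF-α-induced, Trap-80-dependent genes that the study chose on these samples, so its direction here is not independent evidence for that list. It read 9.68, 9.62 and 10.09 in unstimulated wild-type cells, 10.12, 10.02 and 10.55 after TNF-α, and 9.70, 9.61 and 9.79 in stimulated knock-down cells. Within each replicate number the stimulated wild-type array was above the unstimulated one, but the lowest stimulated value lay below the highest unstimulated one. The TNF-α difference was 0.44 ± 0.16 (SE, limma adjusted p = 0.67, or 0.21 with replicate number as a block). Cdh4, which encodes R-cadherin, did not overlap between the groups, at 4.37, 4.45 and 4.45 before and 4.59, 4.68 and 4.53 after stimulation, with a difference of 0.17 ± 0.07 (SE, limma adjusted p = 0.68). All values of Cdh4 lay below the median signal.

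After TNF-α, 9 of the 57 members differed between Trap-80 knock-down and wild-type cells at a limma adjusted p under 0.05, beside 5.96% of all tested probe sets. The protocadherins Pcdh9, Pcdh7 and Pcdh19 and the cadherin Cdh13 were higher in the knock-down cells (4 members, where 3.36% of all probe sets were higher). N-cadherin (Cdh2), P-cadherin (Cdh3) and 3 genes of the protocadherin β cluster (Pcdhb16, Pcdhb17 and Pcdhb5) were lower (5 members, where 2.6% of all probe sets were lower). Brighter probe sets passed more often, at 10.4% of those above the median signal, and 7 of the 11 members above the median were among the 9. Among these 7, Pcdhb16 was above the median through the wild-type arrays, and its knock-down mean of 4.88 lay below it. Over all 57 members the median difference was -0.09, beside -0.02 over all tested probe sets, and 38 members had a difference below 0, beside 54.5% of all tested probe sets. In bulk RNA, fewer cells expressing a gene and less of its RNA per cell cannot be told apart. In 12 members knock-down and stimulated wild-type values did not overlap (20.9% of all tested probe sets), and 13 reached an unadjusted p under 0.05 (17.4%). The study's filter as read here was passed by 11 (16.4%). With replicate number as a block 11 members passed, beside 9% of all probe sets, of which 4 were higher (4.94%) and 7 lower (4.07%), and the added ones were Cdh11 and Pcdh18.

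**Figure D1:**
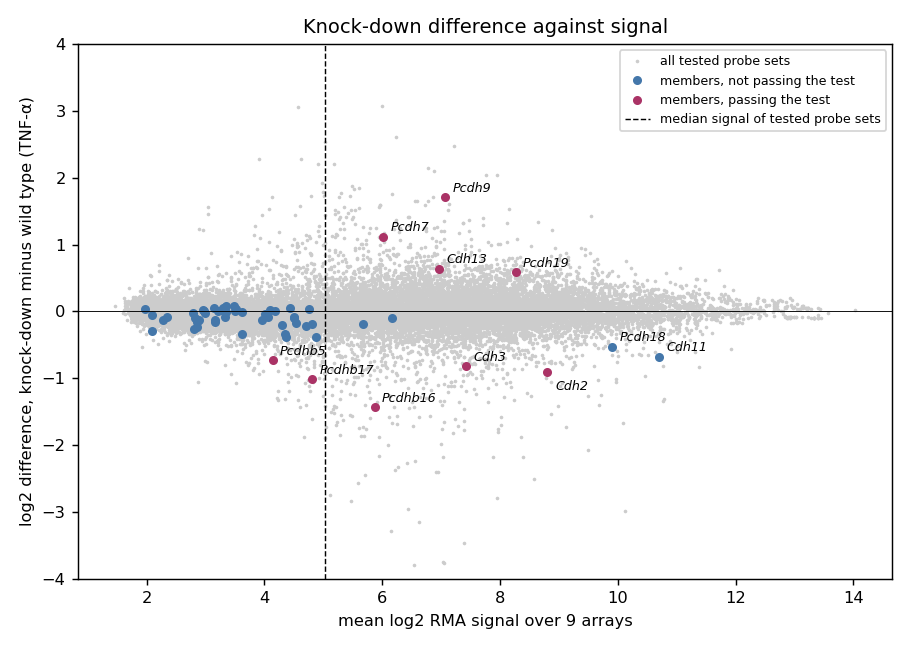
The log2 difference of the knock-down from the wild-type cells after TNF-α (vertical axis) is plotted against the mean log2 RMA signal over 9 arrays (horizontal axis) for every tested probe set (grey) and the 57 members (blue where limma's test was not passed, red for the 9 that passed it). Of the 9 red points, 7 lie to the right of the dashed median signal of 5.02, with Pcdhb17 and Pcdhb5 to its left.

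Among the classical type I cadherins, Cdh2 and Cdh3 fell and the other 3 did not pass the test. Cdh2 encodes N-cadherin, the main adhesion cadherin of neural and mesenchymal cells. It read 9.21, 9.16 and 9.09 in unstimulated wild-type cells, 9.04, 9.05 and 9.11 in stimulated wild-type cells, and 8.09, 8.17 and 8.21 in stimulated knock-down cells. All 3 knock-down arrays lay below all 6 wild-type arrays, and the wild-type groups overlapped. The knock-down difference was -0.91 ± 0.07 (SE, n = 3, limma adjusted p = 1.9e-04), with a 95% interval of -1.06 to -0.76, which left 53.3% of the wild-type signal.

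Cdh3 encodes P-cadherin, named for placenta and also found in basal epithelia. Its values were 7.75, 7.73 and 7.92 in unstimulated wild-type cells, 7.61, 7.56 and 7.79 after TNF-α, and 6.67, 6.65 and 7.17 in the knock-down cells. The groups after TNF-α did not overlap, although knock-down replicate 3 stood above the other two. The difference was -0.82 ± 0.14 (SE, limma adjusted p = 0.0091), leaving 56.6%. For both genes the TNF-α difference in wild-type cells was small, at -0.08 ± 0.07 and -0.15 ± 0.14 (SE).

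E-cadherin, encoded by Cdh1 and the defining cadherin of epithelium, lay below the median signal on every array. It read 4.45, 4.47 and 4.62 unstimulated, 4.58, 4.50 and 4.85 after TNF-α, and 4.57, 4.57 and 4.25 in knock-down cells, so that the groups overlapped. Its knock-down difference was -0.18 ± 0.12 (SE, limma adjusted p = 0.51), with a 95% interval of -0.45 to 0.09. Cdh15, the M-cadherin of skeletal muscle, was likewise below the median at group means of 4.46 ± 0.20, 4.58 ± 0.21 and 4.49 ± 0.16 (SD, n = 3). The knock-down difference of Cdh4 was -0.08 ± 0.07 (SE, limma adjusted p = 0.60).

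None of the 13 type II cadherins passed without the block. Cdh11 encodes cadherin-11, or OB-cadherin, of mesenchyme and bone. It read 10.81, 10.70 and 11.14 in unstimulated wild-type cells, 10.83, 10.71 and 11.31 in stimulated wild-type cells and 10.37, 9.96 and 10.48 in the knock-down cells. Every knock-down array was below every wild-type array, and in each group replicate 3 was the highest and replicate 2 the lowest. The difference was -0.68 ± 0.19 (SE, limma adjusted p = 0.079), and with replicate number as a block the adjusted p was 0.0032. The 3 probe sets that list Cdh11 with other symbols, and cannot be assigned to it, differed by -0.06 to -0.14 with means of 9.62 to 10.9.

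Cdh24, the other type II cadherin above the median signal, had group means of 6.25 ± 0.07, 6.18 ± 0.04 and 6.08 ± 0.19 (SD, n = 3), and its knock-down difference was -0.10 ± 0.10 (SE, limma adjusted p = 0.70). VE-cadherin, encoded by Cdh5 and confined in the body largely to endothelium, was below the median at 3.16 ± 0.26, 3.34 ± 0.08 and 3.40 ± 0.14 (SD, n = 3). The other 10 genes of this type were below the median too, and the 13 differences in the knock-down cells lay between -0.68 and 0.06. Of the 5 other genes of the Cdh series only Cdh13 passed. The remaining 4 (Cdh16, Cdh17, Cdh23 and Cdh26) differed by -0.09 to 0.09.

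Cdh13 encodes T-cadherin, which is held to the membrane by a lipid anchor and has no cytoplasmic tail. Its signals were 7.06, 6.98 and 6.59 in unstimulated wild-type cells, 6.80, 6.58 and 6.70 after TNF-α, and 7.41, 7.36 and 7.22 in the knock-down cells. The knock-down arrays were above all wild-type arrays, by 0.64 ± 0.12 over stimulated wild type (SE, limma adjusted p = 0.017), a 1.56-fold difference. Without the second stimulated wild-type array, the first knock-down array or the second knock-down array the adjusted p was 0.072, 0.069 and 0.067.

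**Figure D2:**
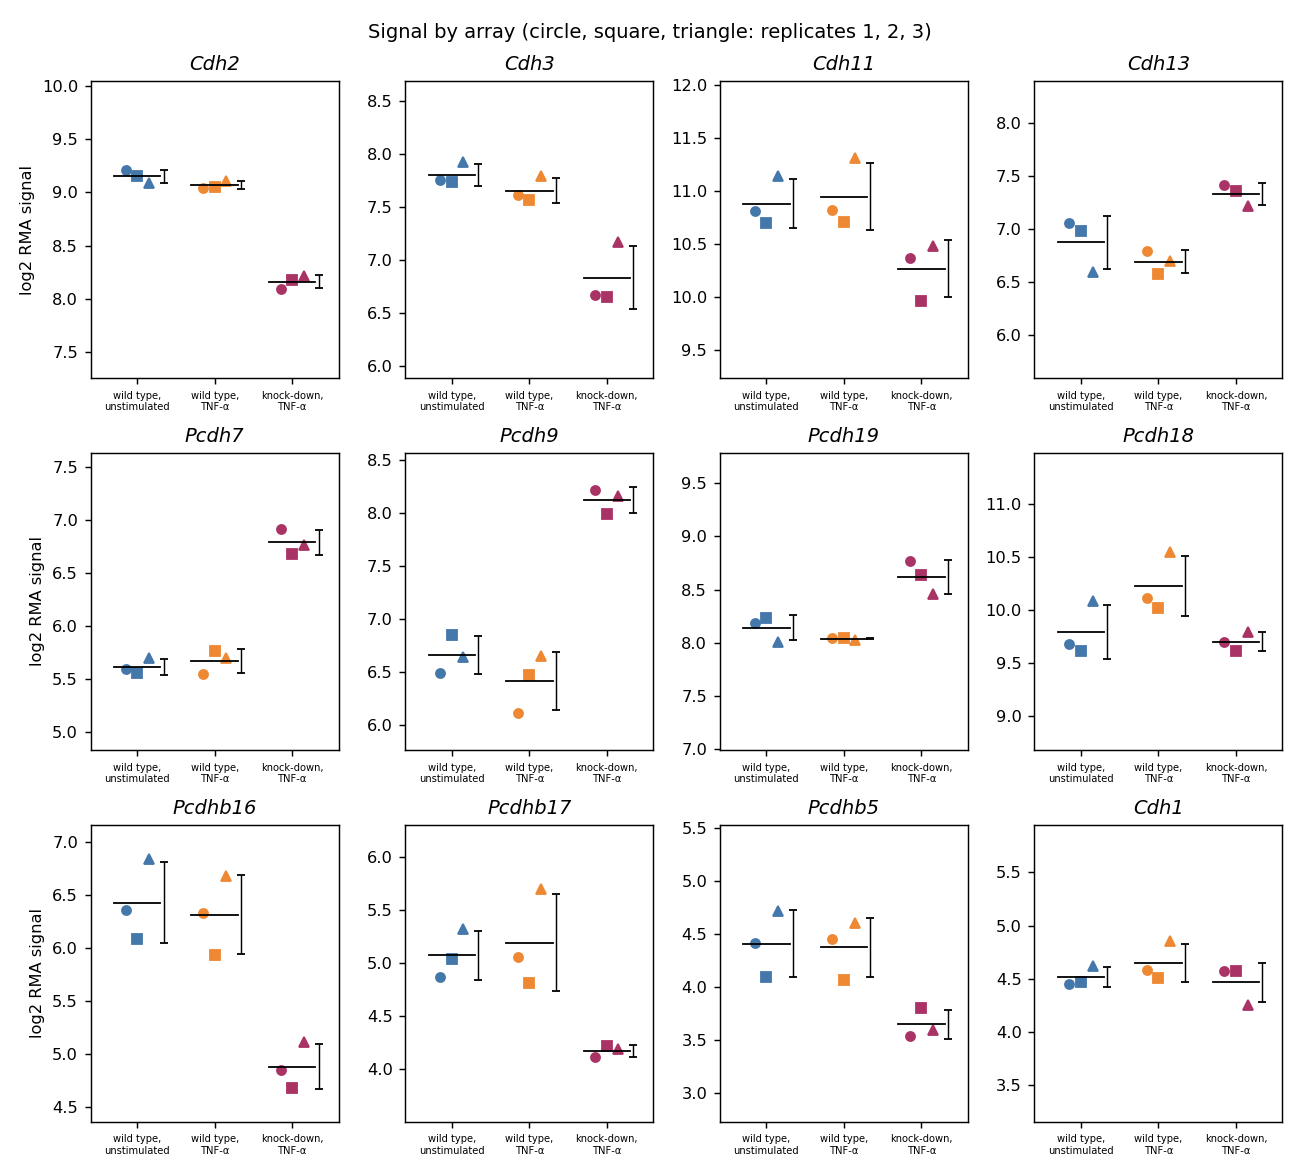
Log2 RMA signal of 12 members on each array, by group, with replicates 1, 2 and 3 as circle, square and triangle, the bar at the group mean and the error bar 1 SD (n = 3); each panel spans the same range on the log2 scale. For Pcdh9, Pcdh7, Pcdh19, Cdh2 and Pcdhb16 the knock-down arrays stand clear of all wild-type arrays, while those of Cdh1, which did not pass the test, overlap with them.

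Of the 12 non-clustered protocadherins, Pcdh9, Pcdh7 and Pcdh19 rose in the knock-down cells and no other passed without the block. These genes encode large adhesion proteins with long cytoplasmic tails and are studied mainly in the nervous system, where PCDH19 is known as an epilepsy gene. Their promoters are shown because they are the 3 members called in the knock-down comparison for which the promoter table holds an entry; 22 of the 57 members have one. Each is the 250 bases upstream of the annotated start, read 5′ to 3′ on the strand of the gene, from RefSeq on GRCm38.p6, with any match to CCAAT or GGGCGG, on either strand, in capitals.

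Pcdh7, chr5:57717831-57718080, plus strand: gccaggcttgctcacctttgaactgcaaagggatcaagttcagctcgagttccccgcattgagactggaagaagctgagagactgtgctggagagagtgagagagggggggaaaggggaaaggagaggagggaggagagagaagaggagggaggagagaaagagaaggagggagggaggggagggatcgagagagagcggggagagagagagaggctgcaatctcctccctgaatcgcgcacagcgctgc

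Pcdh9, chr14:93890680-93890929, minus strand: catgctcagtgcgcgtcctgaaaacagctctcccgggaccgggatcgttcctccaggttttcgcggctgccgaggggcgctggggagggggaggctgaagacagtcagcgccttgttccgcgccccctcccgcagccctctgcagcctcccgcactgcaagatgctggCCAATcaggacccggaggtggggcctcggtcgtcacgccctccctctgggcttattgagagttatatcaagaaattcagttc

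Pcdh19, chrX:133688994-133689243, minus strand: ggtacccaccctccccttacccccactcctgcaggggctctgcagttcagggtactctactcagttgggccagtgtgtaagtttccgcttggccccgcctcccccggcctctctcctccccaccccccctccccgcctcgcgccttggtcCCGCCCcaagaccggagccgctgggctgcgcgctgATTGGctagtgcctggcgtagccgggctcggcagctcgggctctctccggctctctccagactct

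TATAAA, the core of the TATA box, occurred in none of the 3 windows on either strand, and in 12.4% of the 32851 promoters of the table. CCAAT, or its reverse complement ATTGG, occurred once each for Pcdh9 and Pcdh19 and in 33.8% of all promoters. GGGCGG, a GC box, or its reverse complement CCGCCC, occurred once for Pcdh19 and in 32.7% of all promoters. The Pcdh7 window held none of these motifs. The share of G and C was 58.4% for Pcdh7, 63.6% for Pcdh9 and 69.2% for Pcdh19, above the median of 52.4% over all promoters, and CG dinucleotides numbered 7, 18 and 16, beside a median of 6. Pcdh9 had 2 entries in the table, of which the first is shown.

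Pcdh9 had the largest difference of the 57 members in the knock-down comparison. It read 6.49, 6.85 and 6.65 in unstimulated wild-type cells, 6.11, 6.48 and 6.66 after TNF-α, and 8.22, 7.99 and 8.16 in the knock-down cells. The lowest knock-down value was more than 1 log2 unit above the highest wild-type value. The difference was 1.71 ± 0.15 (SE, n = 3, limma adjusted p = 4.2e-04), a 3.27-fold higher signal. A dimmer probe set of the same gene, not used for membership, gave 1.71 ± 0.13 (SE, limma adjusted p = 2.3e-04).

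Pcdh7 read 5.59, 5.55 and 5.70 in unstimulated wild-type cells, 5.54, 5.76 and 5.70 in stimulated wild-type cells and 6.92, 6.68 and 6.76 in the knock-down cells. Again all 3 knock-down arrays were above all 6 wild-type arrays. Its difference of 1.12 ± 0.09 (SE, limma adjusted p = 2.9e-04) was 2.17-fold, with a 95% interval of 0.92 to 1.32 on the log2 scale. Pcdh19 read 8.19, 8.23 and 8.00, then 8.04, 8.04 and 8.03, and 8.77, 8.64 and 8.45 in the same order of groups. This smaller rise, 0.58 ± 0.10 (SE, limma adjusted p = 0.0074), was 1.50-fold and also without overlap.

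Pcdh18 differed by -0.53 ± 0.16 in the knock-down cells (SE, limma adjusted p = 0.10, or 0.010 with replicate number as a block), so it passed in the blocked fit alone. Its knock-down arrays lay below the stimulated wild-type arrays and within the range of the unstimulated ones for all but the lowest. The other 8 non-clustered protocadherins lay below the median signal and differed by -0.22 to 0.04. Non-clustered protocadherins gave 3 called higher (3.36% of all tested probe sets) and 0 called lower (2.6%) out of 12, with a median difference of 0.02.

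Among the 22 genes of the protocadherin β cluster, Pcdhb16, Pcdhb17 and Pcdhb5 fell in the knock-down cells and none rose, where 2.6% of all tested probe sets were lower and 3.36% higher. The median difference was -0.19, beside -0.02 over all tested probe sets, and 19 of the 22 differences were below 0, beside 54.5% of all tested probe sets. These genes neighbour each other on 1 chromosome and are similar in sequence, so their probe sets may share signal and the 22 values are not independent. The Pcdhb genes are counted here each as its own probe set reports it.

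Pcdhb16 read 6.35, 6.09 and 6.84 in unstimulated wild-type cells, 6.33, 5.93 and 6.67 after TNF-α, and 4.85, 4.68 and 5.11 in the knock-down cells. The highest knock-down value lay well below the lowest wild-type value. The difference was -1.43 ± 0.23 (SE, n = 3, limma adjusted p = 0.0064), leaving 37.1% of the wild-type signal. It was the only one of the 3 above the median signal of 5.02 in its mean over all arrays. It was so through the wild-type arrays, since its knock-down mean of 4.88 lay below that median.

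Pcdhb17 read 4.87, 5.04 and 5.32, then 5.06, 4.82 and 5.70, and in the knock-down cells 4.11, 4.22 and 4.20. The knock-down arrays lay below all wild-type arrays, the wild-type groups overlapped, and replicate 3 of the stimulated wild-type cells stood apart from the other two. The difference was -1.02 ± 0.20 (SE, limma adjusted p = 0.020). The adjusted p was 0.055 without the first stimulated wild-type array and 0.065 to 0.075 without any 1 of the knock-down arrays.

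Pcdhb5 read 4.42, 4.09 and 4.72, then 4.45, 4.06 and 4.60, and 3.54, 3.80 and 3.59 in the knock-down cells. The difference was -0.73 ± 0.18 (SE, limma adjusted p = 0.046). This call was the least stable of the 9: it was lost on leaving out any 1 of 6 arrays (unstimulated wild-type replicate 1, stimulated wild-type replicates 1 and 3 and any knock-down array), with adjusted p from 0.080 to 0.16. Pcdhb22, above the median signal like Pcdhb16, had group means of 5.83 ± 0.17, 5.70 ± 0.36 and 5.51 ± 0.16 (SD, n = 3) and did not pass (difference -0.19 ± 0.17 SE, limma adjusted p = 0.65). The 19 members of the cluster that did not pass differed by -0.38 to 0.09.

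The β genes tended to be highest on the same replicate number. Within the unstimulated wild-type group replicate 3 was the highest array for 17 of the 22 genes, beside 39.1% of all tested probe sets, and it was the highest for 15 in the stimulated wild-type group (29.4%) and 13 in the knock-down group (31.2%). The part of this in the differences between groups was not tested, beyond the fit with replicate number as a block, which called the same number of β genes, 3, in the knock-down comparison.

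**Figure D3:**
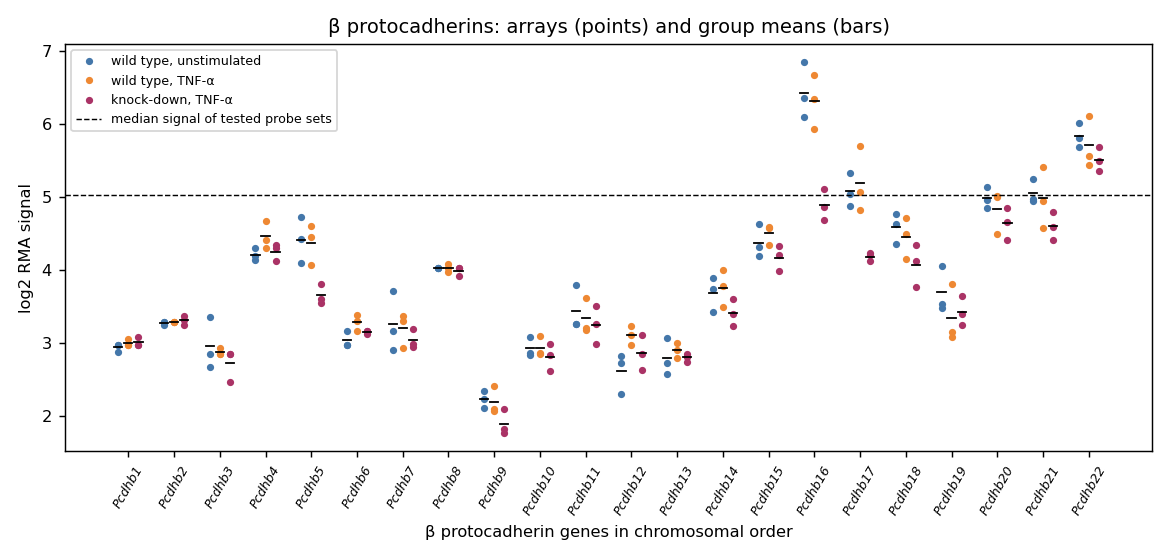
Log2 RMA signal of the 22 β protocadherin genes in their order along the chromosome, with 1 point per array, coloured by group, short bars at the group means and a dashed line at the median signal of 5.02. Pcdhb16, Pcdhb17 and Pcdhb5 show knock-down arrays below all wild-type arrays, and all but Pcdhb16 and Pcdhb22 lie below the median in their mean over 9 arrays.

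Set against unstimulated wild-type cells, the stimulated knock-down cells differed in 8 members, beside 8.25% of all tested probe sets. Of these 3 were higher (3.64%) and 5 lower (4.62%). This comparison shares its arrays with the other comparisons and is the sum of their differences. The 8 were the 9 named above without Cdh13, for which the difference was 0.45 ± 0.12 (SE, limma adjusted p = 0.057). Cdh2 differed by -0.99, Cdh3 by -0.97, Pcdhb16 by -1.54, Pcdhb17 by -0.90 and Pcdhb5 by -0.76, and Pcdh9 by 1.46, Pcdh7 by 1.17 and Pcdh19 by 0.48 (log2 differences). Pcdh18 differed by -0.09 ± 0.16 (SE, limma adjusted p = 0.81). With replicate number as a block, 13 members passed (12.1% of all probe sets), 4 higher (5.18%) and 9 lower (6.87%). The added ones were Cdh13, Cdh11, Pcdhb18 (-0.51), Pcdhb20 (-0.34) and Pcdhb21 (-0.46). Same-numbered arrays of these groups correlated at only 0.00218 to 0.221 in their deviations from the group means. Without the block, 5 members passed when the first or second knock-down array was left out. The study's filter was passed by 11 members (19.9%). A second, dimmer probe set of Cdh24 was higher in this comparison by 0.33 (limma adjusted p = 0.045), whereas the one used for the gene gave -0.17 (limma adjusted p = 0.38), so the probe sets of Cdh24 disagreed in sign.

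**Figure D4:**
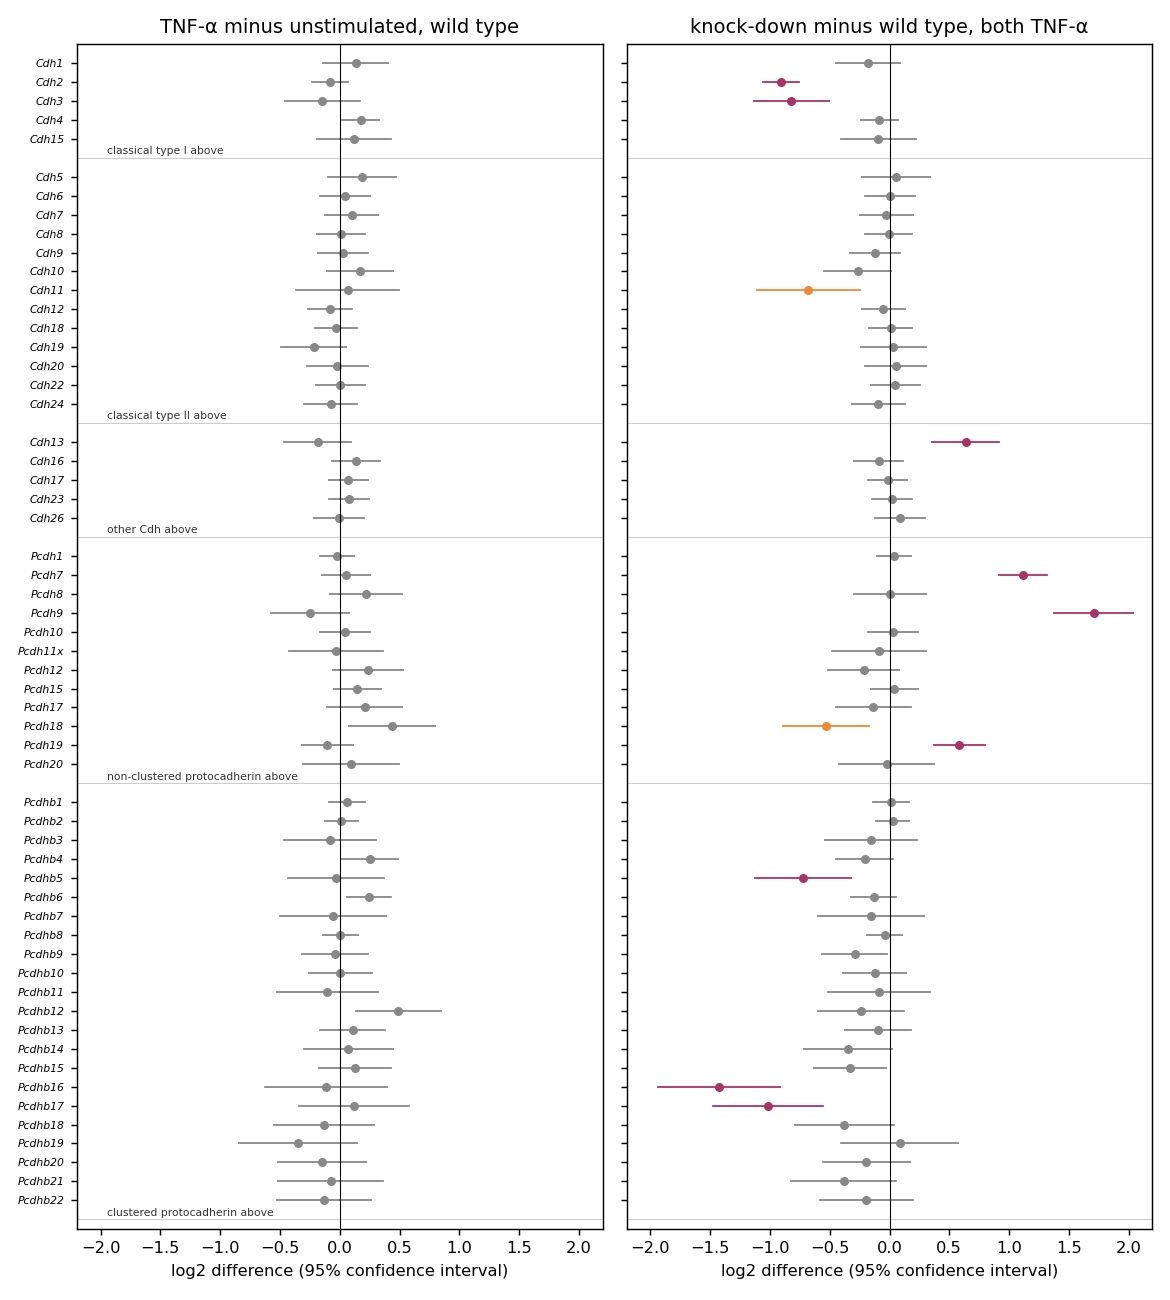
Log2 difference of each of the 57 members, with its 95% confidence interval, for TNF-α in wild-type cells (left) and for knock-down against wild-type cells after TNF-α (right), grouped by subfamily; red marks an adjusted p under 0.05, orange one reached only with replicate number as a block, and grey neither. The left panel has no coloured point and the right has 9 red and 2 orange (Cdh11 and Pcdh18).

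RNA signals of genes for catenins and other cytoplasmic partners of adhesion proteins were read alongside. Of 16 catenins and other cytoplasmic partners, 4 rose in the knock-down cells and none fell, where 3.36% of all tested probe sets were higher, 2.6% lower and, of those above the median signal, 10.4% called in either direction. Of the 16, 13 were above the median signal. Their median difference was 0.24, beside -0.02 over all tested probe sets. Pkp2 encodes plakophilin 2, a desmosomal plaque protein, and read 6.53, 6.39 and 6.79 in stimulated wild-type and 7.36, 7.56 and 7.74 in knock-down cells (0.98 ± 0.12 SE, limma adjusted p = 0.0019). Afdn, for afadin, which links nectins to actin, rose by 0.78 ± 0.13 (SE, limma adjusted p = 0.0081). Pkp1 (0.87 ± 0.22 SE, limma adjusted p = 0.049) and Ctnnal1, for an α-catenin-like protein (0.63 ± 0.14 SE, limma adjusted p = 0.035), passed less stably, in 4 of 14 and 8 of 15 alternative settings. Pkp4, for plakophilin 4, passed with replicate number as a block alone (0.33 ± 0.12 SE, limma adjusted p = 0.17, or 0.027 with the block). The core catenins did not pass, with differences of 0.13 for β-catenin (Ctnnb1), 0.26 for α-catenin (Ctnna1) and -0.23 for p120-catenin (Ctnnd1).

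Among 21 measured genes of the wider cadherin superfamily, Cdhr1 and Clstn1 rose and none fell, beside the same 3.36% and 2.6% of all tested probe sets, with a median difference of -0.03. Cdhr1, a cadherin known from photoreceptors, read 4.73, 4.59 and 5.03 in stimulated wild-type and 5.89, 5.39 and 6.05 in knock-down cells (0.99 ± 0.17 SE, limma adjusted p = 0.010). Clstn1, for calsyntenin 1, differed by 0.34 ± 0.08 (SE, limma adjusted p = 0.033), a call that held in 7 of 15 alternatives. Of 5 nectins and nectin-like proteins, Nectin3 (0.70 ± 0.14 SE, limma adjusted p = 0.017) and Pvr, the poliovirus receptor (0.64 ± 0.13 SE, limma adjusted p = 0.022), rose, beside 3.36% of all tested probe sets. These calls held in 12 and 8 of 15 alternatives. Of the 5, 4 were above the median signal, where 10.4% of tested probe sets were called in either direction. None of 8 genes for shedding and cleavage of cadherins passed. The smallest p values there belonged to the metalloproteinase genes Adam10, Adam15 and Adam17, with differences of 0.26, -0.19 and 0.13 and limma adjusted p of 0.22, 0.38 and 0.44.

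Of 8 transcription factors known to repress E-cadherin, Snai1 fell and Twist2 rose in the knock-down cells. Over all tested probe sets 2.6% were lower and 3.36% higher. All 8 factors were above the median signal, where 10.4% of tested probe sets were called in either direction. Snai1, for Snail, read 8.43, 8.38 and 8.32 in unstimulated wild-type, 7.96, 7.97 and 7.79 in stimulated wild-type and 7.43, 7.40 and 7.26 in knock-down cells. Its 3 groups did not overlap with each other. The knock-down difference was -0.54 ± 0.08 (SE, limma adjusted p = 0.0048), and the TNF-α difference was -0.47 ± 0.08 (SE, limma adjusted p = 0.12, or 0.0496 with replicate number as a block). Twist2 differed by 0.94 ± 0.18 (SE, limma adjusted p = 0.017, held in 12 of 15 alternatives), and Twist1 by 0.52 ± 0.15 (SE, limma adjusted p = 0.079, or 0.0080 with the block). Of 12 chromatin factors known for acting on the clustered protocadherins (CTCF, cohesin and others), 1 passed, and 11 were above the median signal, where the share called was again 10.4%. Smc1a, a cohesin subunit, rose by 0.29 ± 0.07 (SE, limma adjusted p = 0.039, held in 6 of 15 alternatives). Ctcf differed by -0.02 ± 0.07 (SE, limma adjusted p = 0.94). In none of these 6 lists did any gene pass the test for TNF-α without the block.

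**Figure D5:**
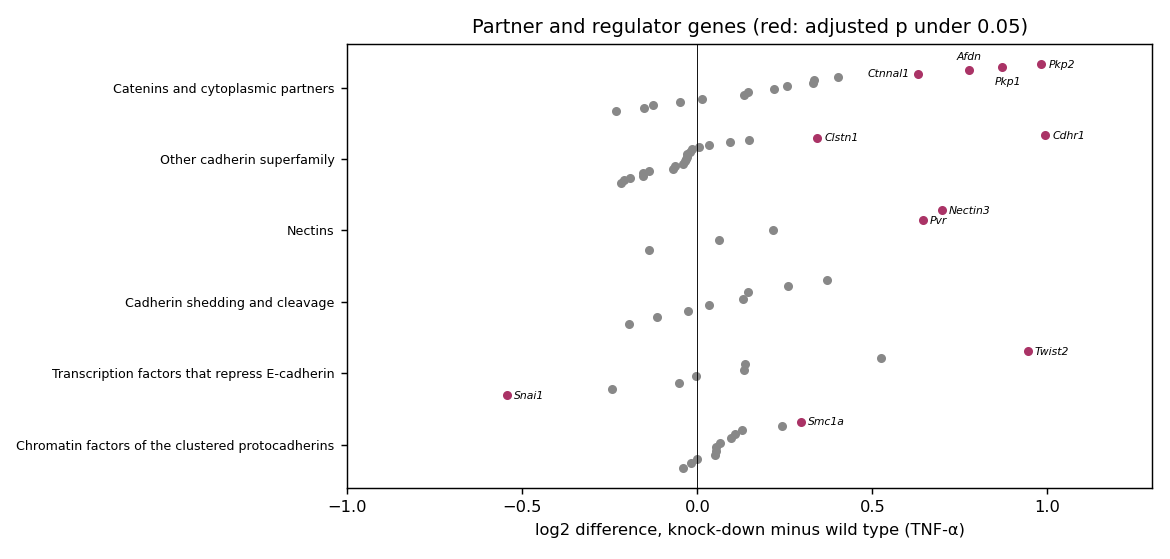
Log2 differences of the knock-down from the wild-type cells after TNF-α for each gene of 6 lists of cadherin partners, relatives and regulators, with red for a limma adjusted p under 0.05 and grey otherwise; height within a list only spreads the points. Red points lie to the right of 0 in the catenin, superfamily, nectin and chromatin lists, and the repressor list has Snai1 to the left and Twist2 to the right.

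Of 10 markers of the fibroblast itself, 2 rose and 1 fell in the knock-down cells. Over all tested probe sets 3.36% were higher and 2.6% lower, and of those above the median signal 10.4% were called. Of the 10 markers, 9 lay above that median. Pdgfra, a receptor of fibroblasts, read 8.95, 8.96 and 9.03 in stimulated wild-type and 7.38, 6.82 and 7.09 in knock-down cells (-1.89 ± 0.12 SE, limma adjusted p = 9.5e-05). Thy1, a surface glycoprotein, read 5.92, 6.38 and 6.35 against 8.45, 7.96 and 8.52 (2.09 ± 0.19 SE, limma adjusted p = 4.8e-04). S100a4, a calcium-binding protein, was higher by 0.55 ± 0.10 (SE, limma adjusted p = 0.011), and the other 7 of 10 fibroblast markers did not pass. The part of these changes in the cadherin differences was not tested. The summed linear signal of the 10 was 21637 to 24945 in stimulated wild-type and 21626 to 24574 in knock-down arrays. Most of that sum came from the brightest markers, such as Vim, Col1a1 and Col1a2 (mean log2 signals of 12.66, 12.56 and 12.41). It therefore hardly registers changes in dimmer markers such as Pdgfra and Thy1.

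None of the epithelial, endothelial, neuronal, muscle or leukocyte markers passed in any of the 3 comparisons without the block. With the block Krt8, for keratin 8, passed in stimulated knock-down against unstimulated wild-type cells (0.69, limma adjusted p = 0.054, or 0.019 with the block). It read 5.01, 5.69 and 5.61 in unstimulated wild-type, 5.95, 6.04 and 6.11 in stimulated wild-type and 6.01, 6.45 and 5.93 in knock-down cells, so its wild-type groups did not overlap (TNF-α difference 0.60 ± 0.19 SE, limma adjusted p = 0.60). Its part in the cadherin differences was not tested. The summed linear signal of the 8 epithelial markers was 162 to 181 in stimulated wild-type and 165 to 198 in knock-down arrays, that of the 6 endothelial markers 75.4 to 83.1 and 76.8 to 78.9, and that of the 5 neuronal and glial markers 92.3 to 110 and 84.2 to 96.1. The 5 muscle markers summed to 85.0 to 92.1 and 72.8 to 90.0, and the 5 leukocyte markers to 115 to 122 and 107 to 118. The defining markers Epcam, Pecam1 and Ptprc had mean signals of 2.82, 3.25 and 3.22, below the median of 5.02.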

How the data were processed

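The authors prepared total RNA from independent samples with RNeasy, labelled single-stranded cDNA and hybridised it to Affymetrix Mouse Gene 1.0 ST arrays, 3 per group. The deposited log2 values, 1 per probe set and array, were made by RMA per the labels; its version and the genome build are not given in the sources used here. The table held 35557 probe sets, of which the platform annotation pairs 21789 with 1 gene symbol, 1621 with several and 12147 with none. The 23410 with a symbol were tested.

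One linear model of the 3 groups was fitted to the deposited values with limma 3.58.1 (lmFit and eBayes) in R 4.3.3, two-sided, with Benjamini-Hochberg adjustment over all 23410 and a threshold of 0.05; members were read from that fit. The median standard error of a difference was 0.10; the number of arrays, 3 per group, limits the precision. The model was tested on simulated data. Replicate numbers 1 to 3 are shared by the groups. Deviations from the group means of same-numbered arrays correlated at 0.110 to 0.403 between the wild-type groups, and those of differently numbered arrays at -0.402 to 0.249. Between the stimulated groups the ranges were 0.147 to 0.465 and -0.392 to 0.160. Between unstimulated wild-type and knock-down arrays they were 0.00218 to 0.221 and -0.228 to 0.161. Every same-numbered pair correlated positively, and every pair of replicate 3 with replicate 1 or 2 negatively. Replicate 3 thus tended to deviate alike in all groups. In each comparison the ranges overlapped through pairs of replicates 1 and 2, which also correlated positively. The correlations therefore did not settle whether numbers 1 and 2 mark pairs. The main fit did not use the numbers, and the fit with replicate number as a block is given beside it. What the numbers mark beyond independent samples is not stated.

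Named with values are members called in any comparison with or without the block, members above the median signal, Cdh1, Cdh2, Cdh3, Cdh5, Cdh11, Cdh15 and Pcdh18, and called genes of each list; Cdh4, Tnfaip3, the core catenins and Ctcf were named after their values were seen. Members, lists and alternatives were chosen with earlier results of these data known. Dchs2, Dsg1a and Dsc1 of the superfamily list had no single-symbol probe set matched here. Alternatives were centring of each array, a filter on dim probe sets, all probe sets, the block, only the 6 arrays compared, a trended robust prior, the study's filter and leaving out each array. Promoter windows come from the RefSeq table on GRCm38.p6; the gene order of the β cluster comes from the same annotation.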

Additional observations from a re-analysis of the deposited data

How the results depend on the processing

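No called difference changed direction under the alternatives run. Only centring and leaving out an array of the groups compared could alter a difference. The other alternatives left each difference unchanged by construction and could alter only its p value or call. The TNF-α count of 0 members held in every limma alternative, and 3 members (Cdh4, Pcdhb6 and Pcdhb12) passed the study's filter as read here (unadjusted p under 0.1 and an SD of the 3 arrays' differences from the control mean below 0.5 of their mean), which 7.46% of all tested probe sets passed; 11 members passed it in the knock-down difference (16.4%) and 11 against unstimulated wild type (19.9%). For the knock-down difference, 6 to 9 members passed when any 1 array was left out and 11 with replicate number as a block, where Cdh11 and Pcdh18 were added. Cdh2, Cdh3, Pcdh7, Pcdh9, Pcdh19 and Pcdhb16 passed in each of the 15 alternatives, whereas Cdh13 was lost in 3, Pcdhb17 in 6 and Pcdhb5 in 8. Among all tested probe sets 68.0% of the knock-down calls were higher after centring each array on its median, against 56.3% as deposited, and the members split into 4 higher and 5 lower either way. For stimulated knock-down against unstimulated wild-type cells, 8 members passed, 13 with replicate number as a block and 5 to 8 when any 1 array was left out, with 5 without the first or second knock-down array. Above the median of all deposited probe sets lay 17 members instead of 11. For Med17, the limma adjusted p of the knock-down difference with replicate number as a block was 2.6e-05. The difference itself, -1.64, could not change with the block, since every group held the same replicate numbers. With 3 arrays per group, the 95% interval of a member's difference that did not pass can still include a sizeable change; that of Cdh1 in the knock-down cells ran from -0.45 to 0.09. The cause of the losses was not tested.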
